A study of Saccharomyces cerevisiae with 2 samples.

Results

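The genes examined were 10 genes of Saccharomyces cerevisiae that encode enzymes of the mitochondrial tricarboxylic acid (TCA) cycle: CIT1, ACO1, IDH1, IDH2, KGD1, KGD2, LSC1, LSC2, FUM1 and MDH1. Their members were the MspI restriction fragments of the nuclear genome whose annotation in the tables named one of these genes, which gave 47 fragments of 13847 numbered nuclear fragments. Of these, 36 overlapped the gene and 11 named it as the nearest neighbour. Uniquely mapped counts were present for 45 of the 47, and the other 2, of 13 bp each, had none. The study measured which fragments lie close to each other by genome conformation capture (GCC), in which chromatin is cross-linked, cut with MspI and ligated, and the joined fragments are sequenced as pairs. Cells of strain BY4741, which carries the his3Δ1, leu2Δ0, met15Δ0 and ura3Δ0 alleles, were grown at 30 °C to an OD600 of 0.6 in glycerol lactate or in galactose medium. There was 1 library per medium, in which the authors had combined 2 biological replicates, so no spread between replicates can be given. All intervals below are 95% intervals that cover counting error only, since reads after PCR are not independent molecules, and every comparison of media compares these 2 libraries.

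The TCA cycle oxidises the acetyl group of acetyl-CoA in the mitochondrial matrix and passes the electrons to the respiratory chain. Glycerol and lactate can be used only by respiration, whereas yeast can both respire and ferment galactose. All the enzymes of the cycle are encoded in the nucleus, and the mitochondrial genome holds only a few genes, mainly for subunits of the respiratory chain and for mitochondrial translation. In the yeast nucleus, the centromeres are held together near the spindle pole body and the telomeres lie at the nuclear periphery, so a gene's place along its chromosome arm sets much of what it meets.

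Pairs were sorted into 4 classes: adjacent fragments, other pairs within a chromosome, pairs between chromosomes, and pairs of a nuclear with a mitochondrial fragment (the rDNA was left out). The uniquely mapped tables held 3219269 counts in glycerol lactate and 2314737 in galactose. Adjacent pairs made up 72.5% of the counts in glycerol lactate and 52.8% in galactose. Other within-chromosome pairs made up 7.03% and 20.4%, between-chromosome pairs 5.63% and 15.7%, and mitochondrial pairs 2.61% and 1.14%, and the rest were pairs of other kinds. Since the classes were so unequal between the libraries, each ratio below is of counts scaled to the total of the class over nuclear fragments (CPM of the class), glycerol lactate over galactose.

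The 10 genes lay on 8 chromosomes (coordinates as in the deposited tables, counted from 1). CIT1, which encodes citrate synthase, was named by 6 fragments, 2 that overlap it and 4 beside it, at 629472 to 632251 of chromosome XIV, and its first fragment was the direct neighbour of the fragment that holds the centromere CEN14. Fragments 1 and 2 overlap CIT1, and fragments 3 to 6 are annotated with the tRNA gene SUF10 instead. IDH1, for a subunit of the NAD-dependent isocitrate dehydrogenase, lay in 1 fragment of 4635 bp on the same chromosome (555392 to 560026), which also holds BDP1, GPI15 and NCE103, 67.5 kb from the centromere fragment. The other 8 genes were more than 158 kb from their centromere fragments. FUM1, for fumarase, was the gene nearest to a chromosome end, 46.6 kb from the end of chromosome XVI.

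CIT1, the gene beside a centromere, had the highest share of partners near other centromeres. In galactose, 148 of its 271 between-chromosome counts joined it to a fragment within 50 kb of the centromere fragment of another chromosome, a share of 54.6% (Wilson interval 48.7 to 60.4). In glycerol lactate the same share was 40 of 185 counts, 21.6% (16.3 to 28.1). Over all nuclear fragments the shares were 16.4% and 14.7%, and 13.7% of the fragments lie in these regions. The CIT1 share was therefore above that of the whole genome in both libraries, and the intervals of the 2 libraries did not overlap. In galactose all 4 larger CIT1 fragments showed it, where fragment 1 gave 33 of 71 counts, fragment 2 gave 54 of 89, fragment 3 gave 32 of 56 and fragment 6 gave 24 of 47. In glycerol lactate they gave 7 of 34, 14 of 63, 6 of 42 and 11 of 41, and only the interval of fragment 6 (15.7 to 41.9%) lay above the genome. Fragment 5, of 49 bp, had only 8 between-chromosome counts in galactose and 5 in glycerol lactate.

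**Figure D1:**
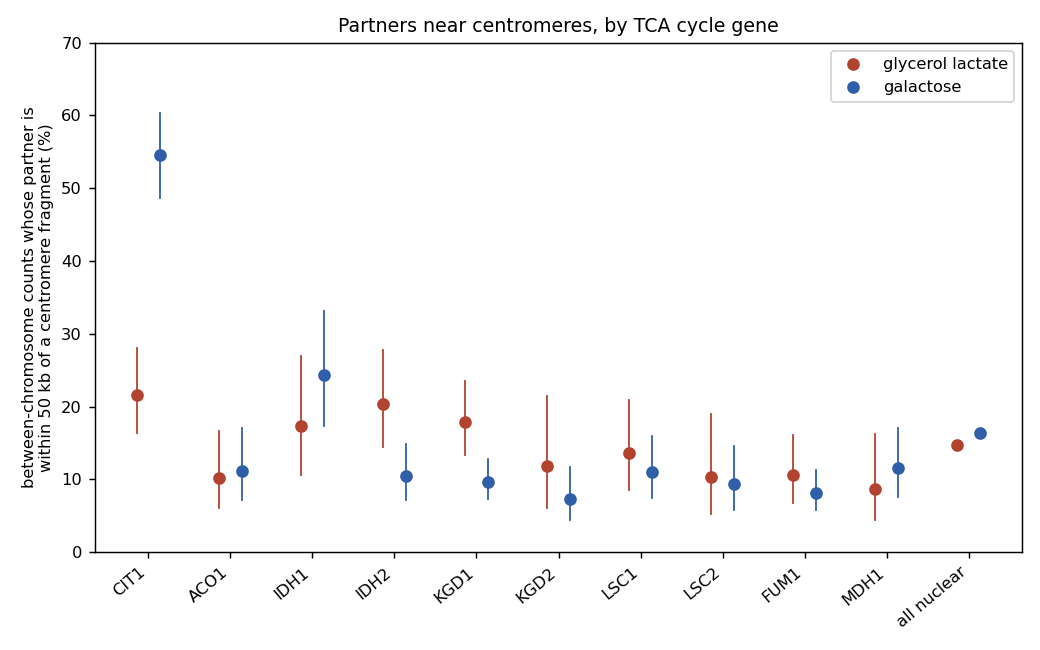
Share of the between-chromosome counts of each gene (percent, y axis) whose partner lies within 50 kb of a centromere fragment, for glycerol lactate (red) and galactose (blue), with all nuclear fragments at the right. Bars are 95% Wilson intervals, and CIT1 in galactose, at 54.6%, lies above every other gene.

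In galactose CIT1 exceeded the genome in each distance bin up to 50 kb. A partner less than 10 kb from a centromere fragment was found for 19.2% of its counts (14.9 to 24.3), against 3.63% over all nuclear fragments. A further 21.4% (16.9 to 26.7) lay at 10 to 25 kb, against 5.02%, and 14% (10.4 to 18.7) at 25 to 50 kb, against 7.80%. In glycerol lactate the shares of the 2 nearer bins were 4.32% (2.21 to 8.30) and 3.78% (1.84 to 7.60), against 3.29% and 4.25%, and the only bin whose interval lay above the genome was 25 to 50 kb, with 13.5% (9.32 to 19.2) against 7.13%. The partners near centromeres in galactose were 135 different fragments spread over all 15 other chromosomes, so that no single pair carried the share. The highest was NIC96, which encodes a nuclear pore protein, at 149871 to 151811 of chromosome VI and 0.510 kb from the CEN6 fragment, with 3 counts to CIT1 fragment 2 in galactose and 0 in glycerol lactate.

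The same split was measured in other fragments beside centromeres. The 154 other fragments within 4 kb of a centromere fragment had 49.6% (48.7 to 50.5) of their counts with partners near centromeres in galactose and 19.3% (18.2 to 20.4) in glycerol lactate, and the CIT1 interval included that share in both libraries. IDH1, at 67.5 kb, had 27 of 111 counts (24.3%, 17.3 to 33.1) in galactose and 14 of 81 (17.3%, 10.6 to 26.9) in glycerol lactate. The other 8 genes ranged from 7.22% to 11.5% in galactose, all below the 16.4% of the genome, although the intervals of ACO1 and MDH1 reached it. In glycerol lactate these 8 genes ranged from 8.70% to 20.3%, with IDH2 highest at 28 of 138 counts (14.4 to 27.8). Why the shares of the 2 libraries differ was not tested.

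Yeast has 3 citrate synthase genes, and all 3 lay beside a centromere in these coordinates. CIT2, for the peroxisomal enzyme, began 5.71 kb from the centromere fragment of chromosome III, and CIT3, for a second mitochondrial enzyme, overlapped the CEN16 fragment itself. CIT2 had 107 of 186 between-chromosome counts (57.5%, 50.3 to 64.4) with partners near centromeres in galactose and 16 of 64 (25%, 16.0 to 36.8) in glycerol lactate. For CIT3 the shares were 218 of 405 (53.8%, 49.0 to 58.6) and 36 of 147 (24.5%, 18.2 to 32.0). The intervals of the 3 genes overlapped within each library. Contacts among the 3 genes themselves were too few to read. CIT1 with CIT2 had 1 count in glycerol lactate, where the totals of the fragments would give 0.0327, and 0 in galactose, where they would give 0.0693. The other 2 combinations had 0 counts in both libraries, where at most 0.151 would be given. CIT2 and CIT3 were singled out after their values were seen.

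The total between-chromosome level of CIT1 was also compared with fragments of like length, since longer fragments collect more of these counts (Spearman rho of 0.791 in glycerol lactate and 0.666 in galactose over 13247 fragments, as a description). Among the 200 nuclear fragments nearest in length, CIT1 fragments 1, 2, 3 and 6 stood at the 93.2, 98.2, 97.2 and 98.8 percentile in glycerol lactate, with 34, 63, 42 and 41 counts against matched medians of 21.0, 38.0, 22.0 and 20.5. In galactose they stood at the 93.0, 88.5, 58.2 and 42.0 percentile, with 71, 89, 56 and 47 counts. Fragment 5 stood low, at the 9.75 percentile in glycerol lactate and 1.5 in galactose. Fragments 1 and 2, which overlap CIT1, had ratios of 0.961 (0.619 to 1.47) and 1.42 (1.01 to 1.98). Fragments 3 and 6, which lie beside it, had 1.51 (0.984 to 2.29) and 1.75 (1.12 to 2.72). All 5 fragments together gave 1020 CPM in glycerol lactate and 745 in galactose, a ratio of 1.37 (1.13 to 1.66). This ratio was made of opposite parts: partners near centromeres had a ratio of 0.542 (0.373 to 0.774), and all other partners 2.37 (1.85 to 3.03). The 154 other fragments beside centromeres had a ratio of 0.904 (0.874 to 0.935) over all partners, below the interval of CIT1. They split in the same directions, with 0.347 (0.323 to 0.372) for partners near centromeres and 1.41 (1.35 to 1.47) for all others, and both CIT1 values were the higher.

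**Figure D2:**
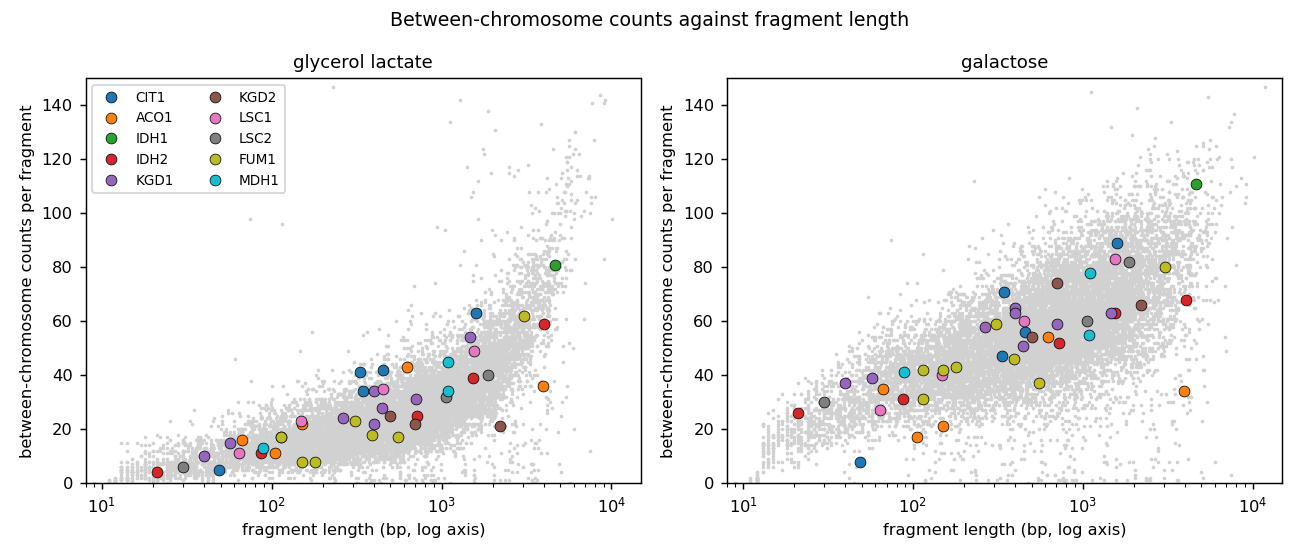
Between-chromosome counts per fragment (y axis) against fragment length in bp (x axis, log) for glycerol lactate (left) and galactose (right), with all nuclear fragments in grey and the TCA cycle fragments coloured by gene. The y axis ends at 150, above which 13 and 10 grey fragments are not drawn, and in glycerol lactate the 4 larger CIT1 fragments lie at the top of the grey cloud, above the 93 percentile of their length, while the 49 bp fragment does not.

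Over all 45 fragments, the between-chromosome counts were 1275 in glycerol lactate and 2344 in galactose, or 7033 and 6443 CPM, a ratio of 1.09 (1.02 to 1.17). The median fragment had 24.0 counts in glycerol lactate, 1.14 times the median of the length-matched fragments, and 54.0 in galactose, 1.01 times. Past 1.5-fold, with at least 10 counts in both libraries together, 9 of 45 fragments were higher in glycerol lactate, where 10.3% of all nuclear fragments were, and 8 of 45 were higher in galactose, against 22.5%. By the interval of each ratio, 10 fragments lay above 1 (9.50% of all fragments) and 5 below 1 (11.2%). The total ratio depended on which sequences and genes were used. Without CIT1 it was 1.06 (0.980 to 1.14), an interval that includes 1, and it was 0.821 (0.783 to 0.860) in the tables of all mapped sequences.

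Gene by gene, the between-chromosome ratios along the cycle had no common direction. ACO1, for aconitase, had 128 counts in glycerol lactate and 161 in galactose, a ratio of 1.60 (1.26 to 2.03). Its longest fragment, of 3945 bp, had 36 and 34 counts and stood at only the 9.0 and 6.50 percentile of its length. This fragment is annotated with MET17 (MET15) as well, for which the strain carries met15Δ0, so its length in these cells may be shorter than the reference length used for matching, and this was not tested. ACO1 fragments 2 to 5 stood at the 36.8, 38.8, 5.00 and 2.25 percentile in galactose. In glycerol lactate they stood at 96.5, 79.0, 85.2 and 29.5. Summed over the gene, the counts were 0.943 times those of length-matched fragments in glycerol lactate and 0.624 times in galactose. IDH1 had 81 and 111 counts, a ratio of 1.46 (1.09 to 1.97), and its partner subunit IDH2 had 138 and 240, a ratio of 1.15 (0.929 to 1.43). The intervals of both subunits overlapped.

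The components of alpha-ketoglutarate dehydrogenase lay further apart, though their intervals also overlapped. KGD1, for its first component, had 218 and 435 counts with a ratio of 1.01 (0.851 to 1.19), and all 8 of its fragments lay above the middle of their length class in glycerol lactate. KGD2, for the succinyl transferase component, had 68 and 194 counts, the lowest ratio of the 10 genes at 0.703 (0.526 to 0.932). Its first fragment had 21 counts in glycerol lactate against a matched median of 45.5, the lowest percentile of the members in this class at 1.00, but 66 against 73.0 in galactose. LSC1 and LSC2, for the subunits of succinyl-CoA ligase, had ratios of 1.13 (0.892 to 1.42) and 0.910 (0.687 to 1.20). FUM1 had 170 and 380 counts, a ratio of 0.898 (0.745 to 1.08), and MDH1, for malate dehydrogenase, had 92 and 174, a ratio of 1.06 (0.815 to 1.37). The intervals of these last 4 genes all included 1.

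**Figure D3:**
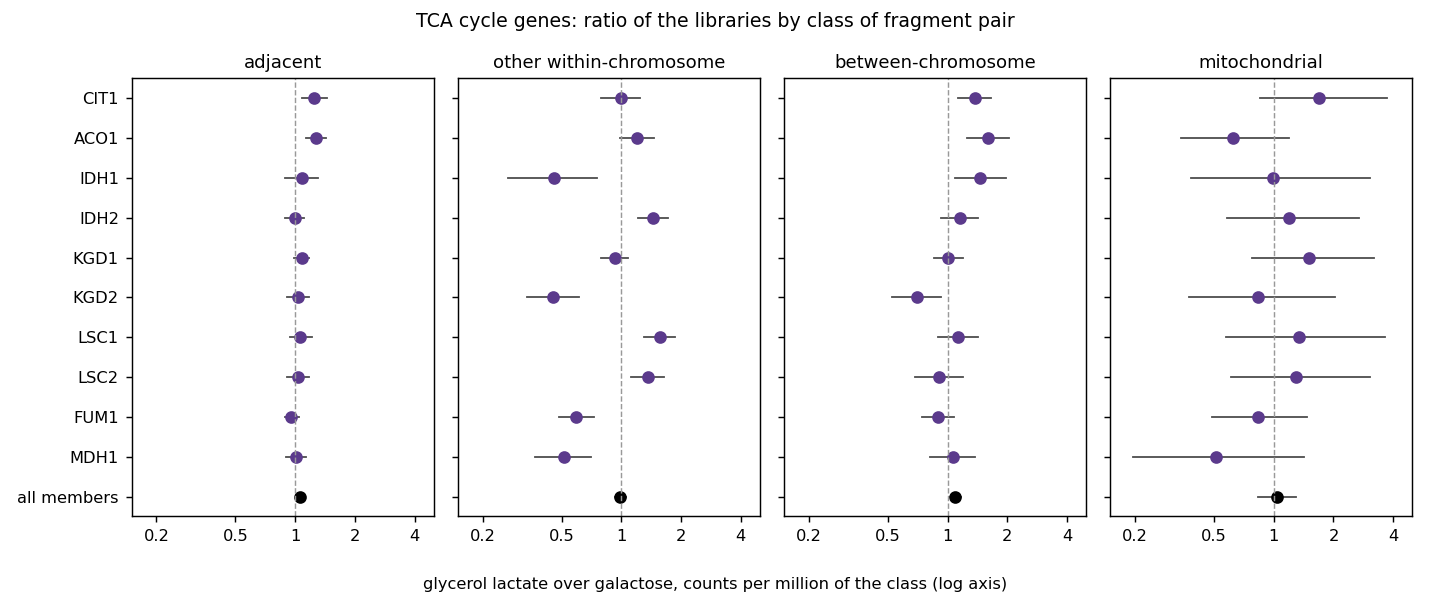
Ratio of glycerol lactate over galactose for each gene, in CPM of the class (x axis, log), in 4 panels for adjacent, other within-chromosome, between-chromosome and mitochondrial pairs. Lines are 95% conditional binomial intervals, the black point is all fragments together, and adjacent ratios stay between 0.958 and 1.27 while other within-chromosome ratios run from 0.455 to 1.56.

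Single between-chromosome pairs were thinly counted. No pair of any TCA cycle fragment with another chromosome had more than 3 counts in either library, and 9 of 1177 pairs in glycerol lactate and 8 of 2211 in galactose reached 3. These shares of 0.765% (0.403 to 1.45) and 0.362% (0.183 to 0.712) were close to those of all nuclear pairs, 1.04% and 0.337%. None of the 17 was seen in the other medium at all. In glycerol lactate FUM1 fragment 8 had 3 counts with each of the neighbouring fragments of CWC22, which encodes a splicing factor, at 1045936 to 1048174 and 1048175 to 1048477 of chromosome VII. KGD1 fragments 6 and 7 each had 3 counts with 1 fragment that holds BAS1, for a transcription factor, and SKG1, at 635542 to 639680 of chromosome XI. In galactose the pairs with 3 counts included FUM1 fragment 8 with STL1, which encodes a glycerol transporter, at 1508427 to 1509344 of chromosome IV, and LSC2 fragment 1 with GIT1, for a transporter of glycerophosphoinositol, at 295868 to 298448 of chromosome III. Of all pairs of members between chromosomes, 6 were seen in both media, which is 0.510% of those in glycerol lactate and 0.271% of those in galactose, against 0.913% and 0.437% over all nuclear pairs.

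For FUM1, the gene nearest to a chromosome end, no excess of partners near chromosome ends was detectable. It had 42 of 380 counts (11.1%, 8.28 to 14.6) with partners within 50 kb of an end in galactose and 27 of 170 (15.9%, 11.2 to 22.1) in glycerol lactate, where all nuclear fragments had 11.7% and 12.2%. CIT1 lay below the genome in galactose, with 13 of 271 counts (4.80%, 2.82 to 8.03).

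Within chromosomes, apart from adjacent pairs, the largest counts came from fragments paired across a very short fragment. Reads across MspI sites that were never cut could also give such counts, which was not tested. IDH2 fragments 1 and 3 flank a fragment of 21 bp and had 142 counts in glycerol lactate and 46 in galactose. LSC2 fragments 1 and 3 flank 30 bp and had 127 and 55. LSC1 fragment 4 and the fragment beyond the 13 bp LSC1 fragment 5 had 99 and 46. Around KGD1 the pair across its 40 bp fragment had 68 and 31 counts and the pair across its 57 bp fragment had 53 and 18. Where the passed fragment was 150 bp or longer, no pair 2 fragments apart around these genes exceeded 6 counts in either library. Over the whole nuclear genome the median count of such pairs was 108 in glycerol lactate and 43.0 in galactose across fragments under 50 bp, and 0 and 2.00 across fragments of 200 bp or longer.

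**Figure D4:**
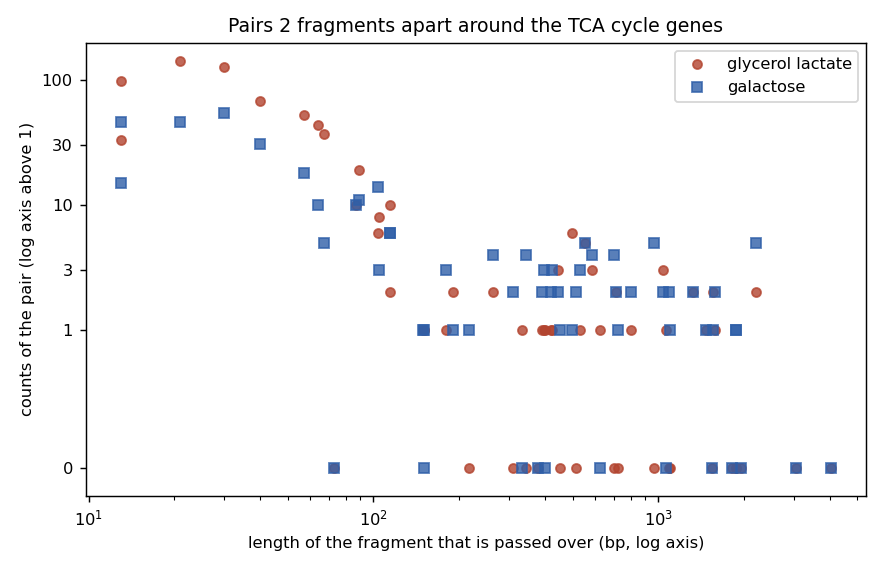
Counts of pairs of fragments 2 apart around the TCA cycle genes (y axis, log above 1) against the length in bp of the fragment between them (x axis, log), for glycerol lactate (red circles) and galactose (blue squares). Counts reach 142 and 55 where the fragment passed over is under 50 bp and fall to 6 or fewer beyond 150 bp.

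These pairs took a large part of the class. In glycerol lactate pairs 2 fragments apart made up 50.8% (48.1 to 53.4) of the other within-chromosome counts of the members and 59.9% of those of all nuclear fragments, and in galactose 12.0% (10.9 to 13.2) and 16.1%. Over all members the counts were 1391 and 2937, a ratio of 0.989 (0.927 to 1.05). The median ratio of single fragments was 0.764 in the members and 0.505 in all nuclear fragments (quartiles 0.351 to 0.917). Most nuclear fragments therefore had a ratio below 1 in this class, which bears on the gene ratios below. Past 1.5-fold, 13 fragments were higher in glycerol lactate (17.9% of all nuclear fragments) and 18 in galactose (65.9%), and by the interval 13 lay above 1 (18.1%) and 15 below (56.6%). In all of the 13 fragments higher in glycerol lactate, 1 pair that skipped 13 to 528 bp had at least 33 counts and held 43.9% to 87.5% of the fragment's counts in that library, with a median of 80.3%. The 528 bp are the MET17 gap beside ACO1 fragment 1, described below. These 13 calls are not separate, because called fragments share pairs. LSC2 fragments 1 and 3 share the pair of 127 counts, and IDH2 fragments 1 and 3 that of 142. KGD1 fragments 4 and 6 share that of 53. CIT1 fragments 3 and 5 share one of 33, and LSC1 fragments 2 and 4 one of 44. In the 18 higher in galactose the largest pair held a median of 25% of the counts in glycerol lactate. Both groups were chosen by these same counts, so the contrast is partly set by the choice, and it was not measured over all nuclear fragments. Fragments past the fold in neither direction varied. CIT1 fragment 6 and ACO1 fragment 2 had top pairs of 36 and 37 counts (80.0% and 67.3%), and KGD1 fragment 8 one of 3 counts (10.3%). LSC1, IDH2 and LSC2 had ratios of 1.56 (1.3 to 1.87), 1.44 (1.21 to 1.72) and 1.36 (1.12 to 1.64). KGD2 and IDH1 had 0.455 (0.335 to 0.610) and 0.459 (0.268 to 0.751), and MDH1 and FUM1 had 0.512 (0.366 to 0.702) and 0.594 (0.483 to 0.727). The intervals of CIT1 at 0.994, KGD1 at 0.927 and ACO1 at 1.20 included 1. LSC1, IDH2 and LSC2, with intervals above 1, had shortest fragments of 13, 21 and 30 bp. Among the genes whose intervals included 1, the shortest were 13 bp in CIT1, 40 bp in KGD1 and 67 bp in ACO1. Below 1, the shortest were 89 bp in MDH1, 114 bp in FUM1, 499 bp in KGD2 and 4635 bp in IDH1. At 3 or more fragments apart, LSC1 had 1.26 (0.938 to 1.66), IDH2 1.19 (0.905 to 1.55) and LSC2 1.06 (0.765 to 1.44). Only MDH1 at 0.661 (0.428 to 0.987), CIT1 at 1.57 (1.20 to 2.04) and ACO1 at 1.85 (1.48 to 2.30) excluded 1. The CIT1 and ACO1 values still hold pairs of 36 and 56 counts in glycerol lactate, across 62 and 528 bp. Whether fragment length accounts for these ratios was not tested.

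For pairs more than 20 kb apart the members had 169 counts in glycerol lactate and 1251 in galactose, a ratio of 0.911 (0.771 to 1.07), and KGD1, at 16 and 194 counts with 0.556 (0.312 to 0.927), was the only gene whose interval excluded 1. Over the fragments that overlap the genes alone, 128 and 1066 counts gave 0.810 (0.669 to 0.974), an interval that excludes 1. The highest such pair was KGD2 fragment 3 with NBP2 in galactose, at 779902 to 780584 of chromosome IV, with 5 counts and 0 in glycerol lactate. In glycerol lactate KGD2 fragment 2 with CWC15 and FUM1 fragment 2 with YDC1 had 3 counts each, and both had 0 in galactose. Of the members' pairs over 20 kb, 13 were seen in both media, 8.78% (5.21 to 14.4) of 148 in glycerol lactate and 1.20% (0.704 to 2.05) of 1081 in galactose, near the 9.86% and 1.46% of all nuclear pairs.

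Adjacent pairs gave the least spread of ratios between genes. Their counts can also come from reads across an MspI site that was never cut, which the tables cannot tell from a ligation. The median of the 52 junctions of the members was 193 counts in glycerol lactate and 89.5 in galactose, against 188 and 94.0 over all nuclear junctions. Over all members 9547 and 4731 counts gave a ratio of 1.06 (1.02 to 1.09), and no fragment passed 1.5-fold in either direction, where 0.928% of all nuclear fragments were higher in glycerol lactate and 1.40% in galactose. By the interval 7 fragments lay above 1, where 12.5% of all fragments did, and 3 below, where 13.1% did. Of the 7, 4 were fragments of ACO1, whose gene total of 981 and 403 counts gave the highest ratio, 1.27 (1.13 to 1.43), followed by CIT1 with 670 and 281 and a ratio of 1.25 (1.08 to 1.44). These ACO1 calls are not separate, because neighbouring fragments share junctions. Fragments 1 and 2 share one of 243 and 90 counts, and fragments 3 and 4 one of 205 and 76. Both fragments of FUM1 that lay below 1 share the junction of FUM1 fragments 2 and 3, which had 223 counts in glycerol lactate and 194 in galactose, a ratio of 0.602 (0.494 to 0.733).

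**Figure D5:**
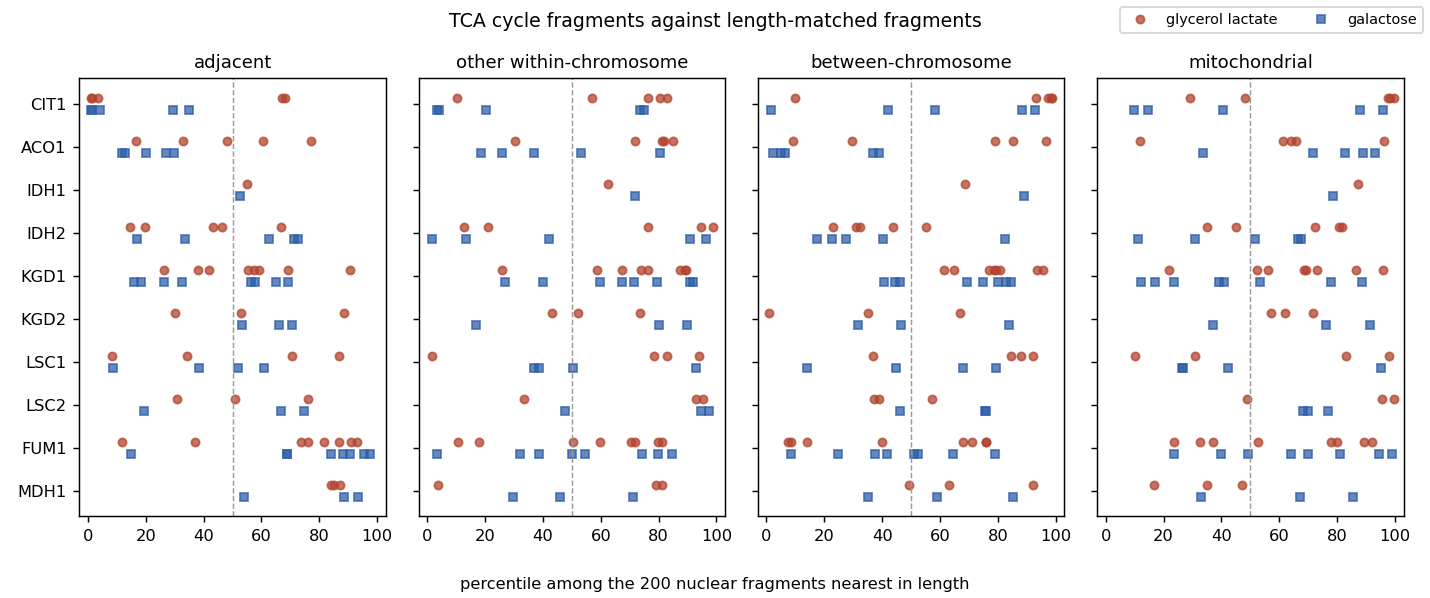
Percentile of each TCA cycle fragment among the 200 nuclear fragments nearest in length (x axis), by gene, in 4 panels for the classes of pairs, for glycerol lactate (red circles) and galactose (blue squares). The dashed line marks the 50 percentile, CIT1 fragments 3, 5 and 6 lie at or below 4.0 for adjacent pairs in both libraries, and in that panel MDH1 and most FUM1 fragments lie above 50.

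For adjacent counts, all 3 MDH1 fragments lay between the 84.0 and 87.2 percentile of their length class in glycerol lactate and between 54.0 and 93.2 in galactose. CIT1 fragments 3, 5 and 6, which name CIT1 as their neighbour and are annotated with the tRNA gene SUF10, lay between 1.00 and 4.0 in both libraries, with 174, 7 and 89 counts in glycerol lactate against matched medians of 381, 318 and 380. LSC1 fragment 4, which is also annotated with the tRNA gene SUF5, stood at 8.25 and 8.50. The 13 bp fragments without any uniquely mapped count lie between CIT1 fragments 3 and 5 and beside LSC1 fragment 4, so CIT1 fragments 3 and 5 and LSC1 fragment 4 had junctions on the other side only. CIT1 fragment 6 had junctions on both sides, with 7 counts in glycerol lactate and 3 in galactose to fragment 5, and 82 and 31 to the fragment of ATO2.

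ACO1 fragment 1 had a junction on 1 side only. It is preceded by 3 fragments that span 528 bp (732579 to 733106 of chromosome XII). Of these 3 fragments 1 appeared in any table, annotated with MET17, another name of MET15, and the strain carries met15Δ0. Its uniquely mapped counts were 0 in both libraries. The fragments on the 2 sides of the gap were joined to each other, with 56 counts in glycerol lactate and 26 in galactose, 87.5% of the other within-chromosome counts of ACO1 fragment 1 in the former. Whether these fragments are direct neighbours in this strain, so that the pair belongs with the adjacent ones, was not tested. The adjacent counts of ACO1 fragment 1, 243 and 90, stood at the 16.5 and 11.8 percentile.

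Contacts among the TCA cycle genes were few. Of 864 possible pairs of member fragments on different chromosomes, 1 was seen in glycerol lactate (KGD1 with IDH1, 1 count) and 4 in galactose (2 of IDH2 with MDH1, 1 of ACO1 with FUM1 and 1 of KGD1 with KGD2, each with 1 count). The between-chromosome totals of the fragments would give 1.90 and 3.23 counts, so the observed counts were 0.526 (exact Poisson interval 0.0133 to 2.93) and 1.24 (0.337 to 3.17) times this. With so few counts, the intervals still include an excess of up to 2.93 and 3.17 times. With all mapped sequences the ratios were 7.20 (2.64 to 15.7) and 3.44 (1.12 to 8.02), so these values depend on sequences that map to more than 1 place. On the same chromosome, IDH2 and LSC1 lie 6.95 kb apart and had 12 counts in galactose and 0 in glycerol lactate, and fragment pairs of all chromosomes at the same separations would give 12.2 and 2.07. CIT1 and IDH1, 69.4 kb apart, had 0 counts in both, where 0.306 and 0.0265 would be given.

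Contacts with mitochondrial DNA were counted for all 45 fragments in glycerol lactate. In total 355 were seen in glycerol lactate and 107 in galactose, or 4231 and 4067 CPM, a ratio of 1.04 (0.836 to 1.30). With all mapped sequences it was 1.29 (1.07 to 1.57), an interval that excludes 1. In the uniquely mapped tables no gene had an interval that excluded 1. CIT1 had 54 and 10 counts with a ratio of 1.69 (0.854 to 3.73), and MDH1 had 13 and 8 with 0.510 (0.196 to 1.42). Only 20 fragments had the 10 counts needed, of which 6 passed 1.5-fold higher in glycerol lactate and 2 higher in galactose, against 35.1% and 21.1% of the 4568 nuclear fragments tested. By the interval 1 lay above 1 (1.27% of all fragments), CIT1 fragment 6, beside the gene, with 14 and 0 counts, and 0 below (1.90%).

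Against fragments of like length, 30 of the 45 lay above the 50 percentile for mitochondrial counts in glycerol lactate and 26 in galactose. The medians were 6.0 counts against 5.00 in glycerol lactate and 2.00 against 1.00 in galactose. LSC2 fragment 1 with 21 counts and CIT1 fragment 3, beside the gene, with 17 both stood at the 99.5 percentile in glycerol lactate, and had 4 and 1 counts in galactose. In galactose FUM1 fragment 7, with 5 counts, stood highest at 99.0. Of the 9 fragments at or above the 90 percentile in glycerol lactate and the 6 in galactose, CIT1 fragment 2 was the only one in both, with 16 and 6 counts at the 97.5 and 95.7 percentile.

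A fragment of COX1, for a catalytic subunit of cytochrome c oxidase, at 17290 to 24261 of the mitochondrial genome took 16 of 355 counts in glycerol lactate and 9 of 107 in galactose, and was the most frequent partner. Over all nuclear fragments it took 3.80% and 5.30% of the counts, and among the mitochondrial partners of the members it had the highest of these shares and the greatest length, 6972 bp. COX1 and its intron genes together took 9.58% (6.93 to 13.1) and 11.2% (6.53 to 18.6), against 9.16% and 13.1% over all nuclear fragments. COB, for cytochrome b, and its intron genes took 6.76% (4.58 to 9.86) and 7.48% (3.84 to 14.1), against 6.49% and 8.11%. Fragments with any mitochondrial gene other than a tRNA took 29.9% (25.3 to 34.8) and 37.4% (28.8 to 46.8), against 28.7% and 36.7%, and all of these shares were within the counting error of the genome. The pair with the most counts was IDH1 with the COX1 fragment, with 4 in glycerol lactate and 0 in galactose. In glycerol lactate 8 of 312 pairs reached 3 counts, 2.56% (1.3 to 4.98) against 1.64% of all nuclear pairs, and in galactose 0 of 101, which allows a share of up to 3.66% (Wilson). Of the 312 and 101 pairs, 15 were seen in both media, 4.81% (2.93 to 7.78) and 14.9% (9.21 to 23.1), above the 2.76% and 8.19% of all nuclear pairs.

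The wider pathway was taken from a list of 22 further genes for enzymes of the cycle, their isoenzymes in other compartments, pyruvate dehydrogenase, pyruvate carboxylase and the pyruvate carrier, of which 19 were named in the annotation and overlapped 68 fragments. For between-chromosome pairs 9 of the 68 were past 1.5-fold higher in glycerol lactate and 14 in galactose, where 10.3% and 22.5% of all nuclear fragments were, and the median ratio was 0.832, against 0.979 for the TCA cycle fragments and 0.905 for all. For adjacent pairs 3 were higher in glycerol lactate, 2 in PYC1 and 1 in PYC2, and 0 in galactose, against 0.928% and 1.40% of all. For other within-chromosome pairs 18 and 37 were, against 17.9% and 65.9%, and for mitochondrial pairs 8 and 8 of the 28 with enough counts, against 35.1% and 21.1%. PYC1 and PYC2 are closely related genes for pyruvate carboxylase, and sequences that map to both are left out of uniquely mapped counts. Whether this bears on their adjacent calls was not tested.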

How the data were processed

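The authors combined the paired-end reads of 2 biological replicates per medium, placed them on the genome by SOAP, allowing no mismatch, and built the pairs in Topography 1.19. The deposited values are counts of ligation products per pair of MspI fragments, not normalized, with 1 table per library for sequences that map once and another for every mapped sequence. Each pair is listed in both orders and was used once. The members and gene lists were chosen with earlier results of these data known.

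Members were found by gene symbol as a whole word in the annotation column, which also names the nearest genes of a fragment without one. The named partners were those with the highest count, of at least 3, per gene, class and medium. Ratios have exact conditional binomial intervals, shares Wilson intervals. Length matching used the 200 nearest of 13202 other nuclear fragments. Calls needed 1.5-fold and 10 counts. Scripts used Python, numpy and scipy and were tested on simulated counts with known folds. Self-ligated fragments and rDNA were left out. Alternatives were the other mapping, other denominators, cut-offs, folds and matching. Without replicates no p-value is given.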

Additional observations from a re-analysis of the deposited data

Results flagged for a closer look

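Fragments ligated to themselves were not used in any comparison above. The 45 TCA cycle fragments had 8 such counts in glycerol lactate and 73 in galactose, both above the 3 counts that a count of 0 allows, and this was 0.487% and 0.336% of the self-ligated counts of all nuclear fragments outside the rDNA. The highest members were CIT1 fragment 3 with 2 counts in glycerol lactate and CIT1 fragment 1 with 7 in galactose.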

How the results depend on the processing

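Of 91 alternatives to 24 results, 52 stayed within the counting error of the value given, or for counts within 1.5 times, 34 moved and 5 turned the direction. The total between-chromosome ratio of 1.09 turned to 0.821 with all mapped sequences, 0.391 with CPM over all classes, 0.955 with pairs of at least 2 counts and 0.757 with at least 3. The adjacent ratio of 1.06 turned to 0.999 by distinct pairs, since all 52 junctions were seen in both libraries. With CPM over all classes, the ratios were 1.45 for adjacent, 0.341 for other within-chromosome and 2.39 for mitochondrial pairs, since the classes take other shares of each library. The other within-chromosome ratio of 0.989 was 0.745 with all mapped sequences, 1.07 with pairs of at least 3 counts and 1.16 without pairs 2 fragments apart, an alternative chosen after seeing the data. Leaving out CIT1, also chosen then, gave a between-chromosome ratio of 1.06 (0.980 to 1.14), which no longer excludes 1, and matched levels of 1.11 and 0.986. With overlapping fragments only that ratio was 1.07 (0.995 to 1.15), and the mitochondrial ratio of 1.04 was 1.29 (1.07 to 1.57) with all mapped sequences.

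Levels against length-matched fragments, with overlapping fragments only, were 1.03 and 1.03 for adjacent pairs (1.00 in glycerol lactate and 0.953 in galactose), 1.52 and 1.05 for other within-chromosome pairs (1.67 and 1.01), and 1.25 for mitochondrial pairs in galactose (2.00). With all mapped sequences they were 1.47 and 1.08 for other within-chromosome pairs, 1.24 for between-chromosome pairs in glycerol lactate (1.14) and 1.5 for mitochondrial pairs in galactose, where 50 matched fragments gave 1.00. Matching on the same chromosome gave 1.02 for adjacent pairs in glycerol lactate and 1.08 for other within-chromosome pairs in galactose. Mitochondrial levels in galactose rest on medians of 1 or 2 counts.

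Fragments past the fold, higher in glycerol lactate and in galactose, were 20 for adjacent pairs in the former with CPM over all classes (0), 1 and 37 for other within-chromosome pairs (13 and 18), 0 and 43 for between-chromosome pairs (9 and 8), and 18 and 0 for mitochondrial pairs (6 and 2). At 2-fold they were 8 for other within-chromosome pairs in glycerol lactate, 2 and 4 for between-chromosome pairs and 1 for mitochondrial pairs in galactose, and with at least 20 counts mitochondrial calls were 1 and 0. Pairs between TCA cycle genes were 7.20 and 3.44 times the totals' value with all mapped sequences (0.526 and 1.24). The share of mitochondrial partners in genes in galactose was 50% with at least 2 counts (37.4%). The causes were not tested. No paired analysis was possible because each medium has 1 library. Depth limits single pairs, of which few reach 3 counts.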
